A study of Mus musculus with 2 samples.

Results

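Potassium channels are membrane proteins that let potassium leave or enter the cell, and their subunits are encoded by a large gene family with symbols that begin with Kcn. In skeletal muscle they end the action potential, hold the resting potential near that of potassium and couple membrane excitability to the energy state of the fibre. Voltage-gated channels open on depolarisation, inward rectifiers pass current near rest, calcium-activated channels open when cytosolic calcium rises, two-pore channels carry background leak, and auxiliary subunits change the gating or the trafficking of the others. The genes described here are all protein-coding genes whose symbol begins with Kcn, chosen by symbol and biotype without regard to their level. There are 94 such genes among 22028 protein-coding genes, and they fall into 40 voltage-gated, 15 inward rectifier, 8 calcium-activated, 14 two-pore and 17 auxiliary genes.

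Calf muscle (gastrocnemius) came from B6CASTF1/J females 4 days old, the first-generation cross of C57BL/6J and CAST/EiJ. Total RNA (300 ng per library, reduced in ribosomal RNA, with ERCC spike-ins) was sequenced from 2 samples, called replicates 1 and 2, with no treatment and no contrast between conditions. The labels call them biological replicates and number the females separately, but give both a single donor record, so it is not settled that they came from different animals, and the spread between them may be technical. Values are TPM (a transcript abundance corrected for length and sequencing depth) from the deposited gene tables unless stated, given per library and as mean ± SD (n = 2), and the SD measures only the spread between these 2 samples. No p-value is given, since the libraries form 1 group. Detected means that both libraries reached 1 TPM, which stood for about 87.9 counts in replicate 1 and 102 in replicate 2 for a gene of the median length of those detected. Muscle fibre markers were abundant, with median levels of 2809 and 3319 TPM in replicates 1 and 2, and markers of mural cells, endothelium, Schwann cells, macrophages and fibroblasts were all detected. Of 6 neuronal markers only Stmn2 was detected (2.31 and 2.45 TPM). RNA from several cell types was thus pooled, and in such bulk samples fewer cells of a type and less RNA per cell cannot be told apart. Red cell markers (all 5), tendon markers (all 5) and bone and cartilage markers (5 of 6) were higher in replicate 1, and liver markers (all 6) were lower.

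The coding sequences held the family's shared signature. The pore of a potassium channel is lined by a loop whose glycine-tyrosine-glycine or glycine-phenylalanine-glycine residues form the selectivity filter. In the GENCODE annotation of the mm10 build, every one of the 77 genes of the pore-forming classes held GGNTANGGN or GGNTTNGGN (with C or T as the 6th base) in its longest coding sequence, read in frame on the coding strand only. None of the 17 auxiliary genes held one, and 13.4% of 21614 protein-coding genes did. At least 2 matches were present in 11 of the 14 two-pore genes, whose subunits have a pair of pore loops. They were also present in 2 inward rectifier genes (Kcnj2 and Kcnj12) and 2 voltage-gated genes (Kcnq3 and Kcnh4). A match is a stretch of letters and not a measure of channel function. The filter codons of a leading gene of each pore-forming class, and of Kcnh2, are printed below in capitals. Kcnh2, chosen after the sequences were seen, is a voltage-gated gene with a phenylalanine codon where Kcnc4 has one for tyrosine. Each sequence comes from the coding transcript of highest mean TPM, which for Kcnma1 and Kcnh2 is shorter than the longest. In replicate 1 another coding transcript of Kcnh2 was higher (3.70 against 3.26 TPM), and in replicate 2 another of Kcnk13 (1.08 against 0.57 TPM). Windows hold 21 bases of coding sequence on each side, read 5′ to 3′ on the coding strand. The first window of Kcnk13 crosses an exon junction, and the others lie within 1 exon.
Kcnc4 (voltage-gated, chr3:107447778-107447828, minus strand): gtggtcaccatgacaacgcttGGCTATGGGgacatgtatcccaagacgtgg
Kcnh2 (voltage-gated, chr5:24325534-24325584, minus strand): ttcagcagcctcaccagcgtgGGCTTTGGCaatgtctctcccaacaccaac
Kcnj11 (inward rectifier, chr7:46099475-46099525, minus strand): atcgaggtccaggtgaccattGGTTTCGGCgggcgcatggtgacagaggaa
Kcnma1 (calcium-activated, chr14:23528392-23528442, minus strand): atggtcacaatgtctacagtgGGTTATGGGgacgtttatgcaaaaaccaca
Kcnk13, first match (two-pore, chr12:99966259-100061030, plus strand): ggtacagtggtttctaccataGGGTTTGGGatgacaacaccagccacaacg
Kcnk13, second match (two-pore, chr12:100061361-100061411, plus strand): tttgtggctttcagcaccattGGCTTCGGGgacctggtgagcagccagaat

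Of the 94 potassium channel genes, 30 (31.9%) were detected, against 54.8% of all protein-coding genes. The median level was 0.37 TPM in replicate 1 and 0.29 TPM in replicate 2, against 2.14 and 2.05 TPM over all protein-coding genes. Detected members also stood lower among detected genes, with a median mean level of 2.86 TPM against 9.91 TPM for all detected protein-coding genes. Summed over the family the level was 229 and 254 TPM in replicates 1 and 2, and the 30 detected genes held 93.0% and 94.7% of it. Counts of all 94 members were whole numbers in both libraries (within 0.005). Another gene overlapped 15 of the 30 detected genes on the opposite strand, and how strand entered the counting is not stated. In 12 of the 15 the opposite-strand genes had under 10% of the member's own counts in both libraries, and the other 3 were Kcnq1, Kcnab2 and Kcnmb4, whose values are less certain. On the same strand, another gene overlapped 5 detected genes. The pseudogene Pdcd5-ps overlaps Kcnk2 and had 83.6 and 101 counts, against 116 and 126 for Kcnk2, whose value is also less certain. Likewise the pseudogene Gm7658 overlaps Kcnq5 and had 20.4 and 19.0 counts, against 150 and 167 for Kcnq5. Kcnq1 is overlapped on its own strand by Gm37364, with 31 and 21 counts against 210 and 233. Among the 6 members that reached 10 TPM in both libraries were Kcne1l, Kcnj11, Kcnc4 and Kcnma1.

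**Figure D1:**
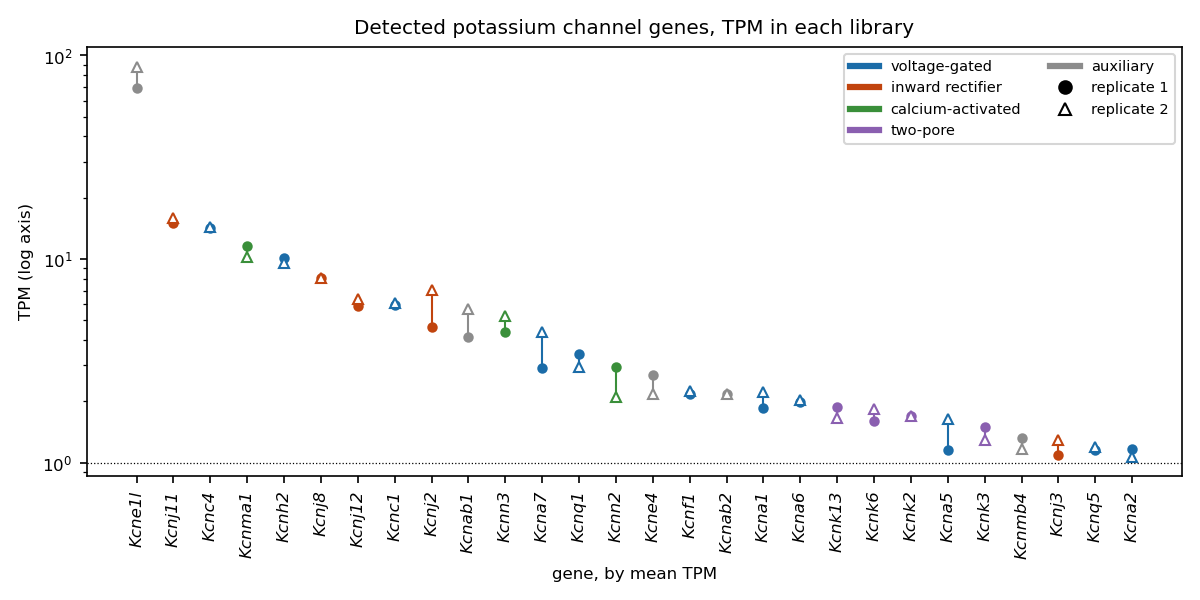
TPM on a log axis of 28 of the 30 detected potassium channel genes in replicate 1 (circles) and replicate 2 (triangles), ordered by mean and coloured by class, with a dotted line at 1 TPM. Kcne1l stands alone at the top with 69.3 and 88.3 TPM, while Kcnj11 has 15.0 and 16.0 TPM.

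The order of the detected genes was clearest at the top. Of the 29 pairs of neighbours in the order of mean TPM, 9 had values that did not overlap between the libraries and 20 overlapped. Kcnj11 and Kcnc4 did not overlap, nor did Kcnma1 and Kcnh2, while every neighbouring pair between Kcnj12 and Kcnf1 overlapped. The other deposited quantification, a separate set of transcript tables summed per gene, put 9 of the same 10 genes in its top 10 and all 30 at 1 TPM or more. Its TPM were higher throughout, by a median of 1.71-fold and 1.67-fold in replicates 1 and 2 over the detected members.

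Class shares depended on 1 auxiliary gene. Auxiliary genes took 37.9% ± 2.79 of the family TPM, voltage-gated genes 34.0% ± 1.13, inward rectifiers 15.8% ± 0.0954, calcium-activated genes 8.88% ± 1.45 and two-pore genes 3.35% ± 0.303. The auxiliary share was 36.0% in replicate 1 and 39.9% in replicate 2, and the voltage-gated share was 34.8% and 33.2%, so the 2 largest classes did not overlap. By expected counts, which weigh long transcripts more, the order turned, with 47.9% for voltage-gated and 19.8% for auxiliary genes. Without Kcne1l, a comparison chosen after its level was seen, voltage-gated genes took 50.4% ± 0.676, inward rectifiers 23.4% ± 1.24, calcium-activated genes 13.1% ± 1.53, auxiliary genes 8.09% ± 0.167 and two-pore genes 4.95% ± 0.218. The detected genes were 13 of 40 voltage-gated, 5 of 15 inward rectifier, 3 of 8 calcium-activated, 4 of 14 two-pore and 5 of 17 auxiliary genes.

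**Figure D2:**
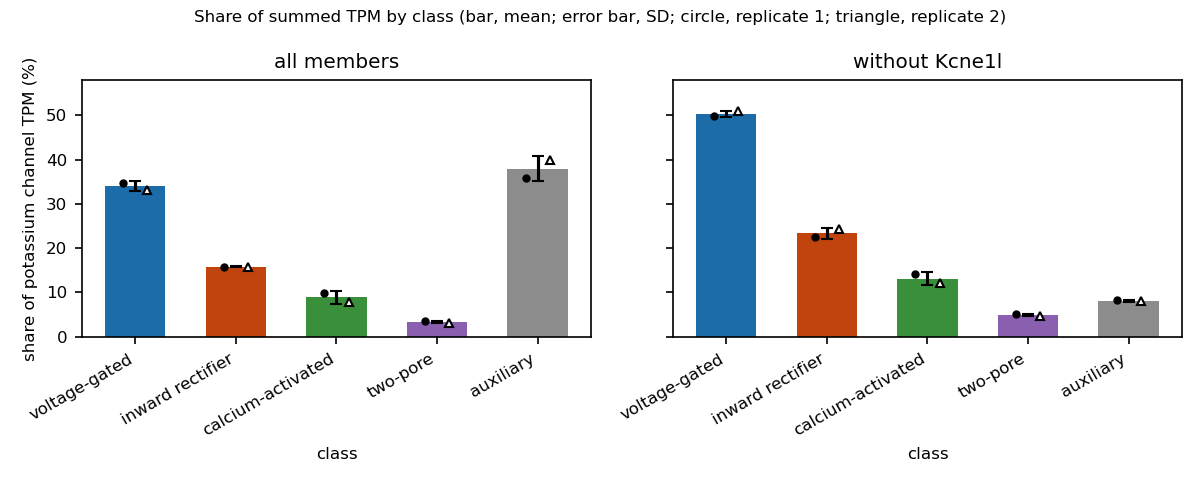
Share of the family's summed TPM in percent by class, for all members (left) and without Kcne1l (right), with bars at the mean of the 2 libraries, error bars of 1 SD, circles for replicate 1 and triangles for replicate 2. The auxiliary bar is at 37.9% with Kcne1l and 8.09% without it, and the voltage-gated bar is at 34.0% and 50.4%.

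Among the voltage-gated genes described here, the fast-activating channel gene Kcnc4 led, followed by Kcnh2 and Kcnc1. Kcnc4 (chromosome 3, 107438303 to 107459552) had 14.3 and 14.4 TPM, and Kcnc1, a channel gene of the same subfamily, had 5.96 and 6.08 TPM. The Kcnc4 level was 2.39-fold that of Kcnc1 in replicate 1 and 2.36-fold in replicate 2, and the values of these genes did not overlap. Kcnc2 had 0.49 and 0.42 TPM.

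Kcnq1, best known as the slow cardiac repolarising channel gene, had 3.40 and 2.96 TPM, and Kcnq5 1.15 and 1.19 TPM, while the neuronal channel gene Kcnq3 had 0.10 and 0.07 TPM. Kcnq1 contains the antisense RNA gene Kcnq1ot1, which had 9008 and 9281 counts against 210 and 233 for Kcnq1 itself. The doubt about strand therefore bears on Kcnq1.

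Kcnh2, the gene of the ether-a-go-go related channel known for cardiac repolarisation, had 10.1 TPM in replicate 1 and 9.51 TPM in replicate 2. It was the one detected member of its 8 genes and took 92.7% ± 0.108 of their TPM. Kcnf1, a silent subunit gene that forms channels only with other subunits, had 2.18 and 2.24 TPM. No member of the Kcnd, Kcng, Kcns or Kcnv subfamilies was detected. The highest of the 4 Kcng genes, Kcng2, had 0.96 and 0.59 TPM. Kcnd genes encode the pores of transient outward current; Kcnd1, the highest of the 3, had 0.48 and 0.56 TPM.

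The Shaker-type subfamily Kcna had the most detected members of any voltage-gated subfamily, 5 of 8, each at a low level. Kcna7, a channel gene known from skeletal muscle, led with 2.90 TPM in replicate 1 and 4.40 TPM in replicate 2. The axonal channel genes Kcna1 and Kcna2 had 1.85 and 2.21 TPM and 1.17 and 1.07 TPM. Kcna6 had 1.98 and 2.03 TPM, and Kcna5 1.15 and 1.64 TPM. The neighbouring genes Kcna5, Kcna1 and Kcna6 lie within chromosome 6, 126532551 to 126740674, and all 3 were detected. Of the matching cluster on chromosome 3 (107036169 to 107195721), Kcna2 was detected, Kcna10 had 0.67 and 0.70 TPM from 10 and 16 counts, and Kcna3 had 0.26 and 0.21 TPM.

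Among inward rectifiers, the genes of both ATP-sensitive pores stood above those of the classical inward rectifiers. These ATP-sensitive channels close when ATP is plentiful and so link excitability to metabolism. Kcnj11, the pore gene of the muscle and beta cell form (chromosome 7, 46093953 to 46100764), had 15.0 TPM in replicate 1 and 16.0 TPM in replicate 2. Kcnj8, the pore gene of the vascular form (chromosome 6, 142564837 to 142571614), had 8.04 and 8.10 TPM, so Kcnj11 was 1.86-fold and 1.97-fold higher. Each pore needs a sulfonylurea receptor, and each of the receptor genes lies beside a pore gene. Abcc9, 16.2 kb from Kcnj8, had 40.4 and 43.8 TPM, while Abcc8, 3.76 kb from Kcnj11, had 2.14 and 1.77 TPM. Abcc9 was thus 18.9-fold and 24.8-fold above Abcc8, and Kcnj11, the neighbour of Abcc8, was the higher of the 2 pore genes. Lying side by side does not show which receptor a pore uses, and the pairing was not tested. Markers of mural cells, which use Kcnj8 with Abcc9, were all detected, with Rgs5 at 45.2 and 49.0 TPM; their part in the Kcnj8 level was not tested.

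The strong inward rectifier genes Kcnj12 and Kcnj2, which hold the resting potential, were close in mean level. Kcnj12 had 5.89 and 6.34 TPM in replicates 1 and 2, and Kcnj2 had 4.65 and 7.04 TPM, so their values overlapped. Clcn1, the chloride channel gene that also holds the resting potential of adult muscle, had 12.5 and 13.0 TPM. Kcnj3, a G protein-gated rectifier gene, was just past the detection level at 1.09 and 1.29 TPM. Its usual partners Kcnj5, Kcnj6 and Kcnj9 had at most 5 counts in either library. Kcnj10, the glial rectifier gene, had 0.53 and 0.87 TPM.

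**Figure D3:**
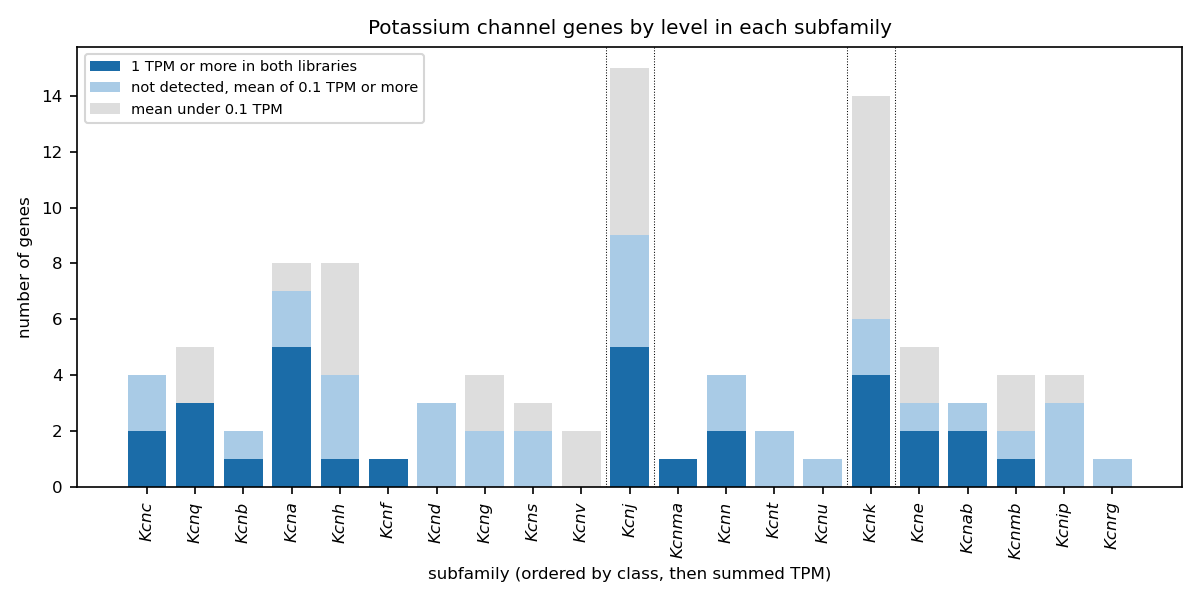
Number of genes in each Kcn subfamily, split into detected genes, those not detected with a mean of at least 0.1 TPM, and those with a mean under 0.1 TPM; dotted lines separate the classes. Kcnj and Kcnk, the largest subfamilies, have 5 of 15 and 4 of 14 detected genes, and 13 of the 21 subfamilies have at least 1.

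Among calcium-activated genes, the large-conductance channel gene Kcnma1 led, followed by small-conductance genes. Kcnma1 (chromosome 14, 23289431 to 24014491) had 11.5 and 10.3 TPM in replicates 1 and 2 and took 51.1% ± 0.428 of its class. Of its auxiliary subunits, Kcnmb4 was detected at 1.32 and 1.17 TPM, so Kcnma1 stood 8.73-fold and 8.78-fold above it, against 4.57-fold and 5.59-fold in the other quantification. Kcnmb1, the subunit gene of smooth muscle, had 7 and 5 counts, and Kcnmb2 and Kcnmb3 had at most 8 counts. Among the gamma subunit genes of the same channel, Lrrc38 had 4.00 and 4.34 TPM and Lrrc55 1.08 and 1.15 TPM, while Lrrc26 and Lrrc52 had at most 4 counts.

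Kcnn3, a small-conductance channel gene known in rat from denervated muscle, had 4.37 TPM in replicate 1 and 5.23 TPM in replicate 2. Kcnn2 had 2.96 and 2.11 TPM, so Kcnn3 was 1.48-fold and 2.48-fold above it, against 1.19-fold and 1.91-fold in the other quantification. The TPM of these genes did not overlap. The intervals that the authors' tables give overlapped in replicate 1 (3.90 to 4.67 TPM for Kcnn3, 2.82 to 4.28 TPM for Kcnn2) and not in replicate 2. Kcnn1 had 0.70 TPM in each library. Kcnt2, a sodium-activated channel gene of the same superfamily, was just under the detection level with 1.09 and 0.91 TPM.

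The two-pore genes were uniformly low, with 4 detected genes between 1.29 and 1.87 TPM. Kcnk13, a halothane-inhibited channel gene, had 1.87 TPM in replicate 1 and 1.65 TPM in replicate 2. Kcnk6 had 1.60 and 1.83 TPM, and the stretch-sensitive channel gene Kcnk2 1.69 TPM in each library. The acid-sensitive channel gene Kcnk3 was the lowest of the 4 at 1.49 and 1.29 TPM. The values of Kcnk13, Kcnk6 and Kcnk2 overlapped from each gene to the next, while both values of Kcnk3 lay below those of the other detected two-pore genes. Kcnk1 (0.82 and 0.84 TPM) and Kcnk5 (0.49 and 0.60 TPM) followed, and the other 8 genes of the class had at most 10 counts in either library.

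Kcne1l, also named Kcne5, was the highest of all 94 genes. It encodes a small single-pass subunit that modulates voltage-gated channels, and its gene spans 1.54 kb of the X chromosome (142304752 to 142306294). Its values were 69.3 TPM in replicate 1 and 88.3 TPM in replicate 2, from 2803 and 4048 counts. Its level was 4.63-fold and 5.53-fold that of Kcnj11, the highest inward rectifier gene, and exceeded that of 93.9% of detected protein-coding genes. It took 96.1% ± 1.16 of the TPM of its subfamily. No annotated gene overlaps it. Of its relatives, Kcne4 had 2.68 and 2.17 TPM, and Kcne3, which pairs with Kcnc4 in skeletal muscle, had 0.71 and 0.63 TPM from 17 counts in each library. Kcnc4 was thus 20.1-fold and 22.8-fold above Kcne3. Kcne1, the cardiac partner of Kcnq1, had no counts.

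Of the cytoplasmic beta subunit genes, Kcnab1 had 4.16 TPM in replicate 1 and 5.65 TPM in replicate 2, Kcnab2 2.17 TPM in each, and Kcnab3 0.33 and 0.19 TPM. The 2.17 TPM of Kcnab2 lay below the interval that the authors' tables give for it, 2.52 to 4.67 TPM in replicate 1 and 2.61 to 4.49 TPM in replicate 2. None of the Kcnip genes, whose products bind Kcnd channels, reached 1 TPM, and the highest, Kcnip3, had 0.50 and 0.40 TPM. Dpp6, a partner of Kcnd channels, had 1.94 TPM in each library.

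Potassium-permeable channels outside the Kcn symbols and genes of excitability were compared as a list. The sarcoplasmic reticulum channel gene Tmem38a, which provides counter-current during calcium release, had 186 TPM in replicate 1 and 216 TPM in replicate 2, above every Kcn gene, and its paralog Tmem38b had 25.0 and 24.0 TPM. The lysosomal channel gene Tmem175 had 4.21 and 4.96 TPM. The hyperpolarisation-activated channel genes Hcn2, Hcn3 and Hcn4 were each below 0.5 TPM. The muscle sodium channel gene Scn4a had 30.6 and 33.5 TPM, also above every Kcn gene except Kcne1l.

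Of the 64 genes not detected, 33 had a mean of at least 0.1 TPM and 31 were below it. Kcnt2 and Kcnn4 reached 1 TPM in replicate 1 only. The genes just inside the detection level were Kcna2, Kcnq5 and Kcnj3, with means of 1.12, 1.17 and 1.19 TPM. Those just outside were Kcnt2, Kcnk1 and Kcnn4, with means of 1.00, 0.83 and 0.795 TPM. Among detected genes, the authors' intervals reached below 1 TPM for Kcna5, Kcnj3 and Kcna2 in replicate 1. In replicate 2 they did so for Kcnmb4, Kcnj3 and Kcna2, so the detection of these genes is less certain. Kcne1, Kcnj1, Kcnk15, Kcnk16 and Kcnk18 had 0 counts in both libraries, where a floor of 3 counts allows up to 0.0754 TPM in replicate 1 and 0.0664 TPM in replicate 2. A further 6 genes had 0 counts in 1 library. In all, 32 genes had fewer than 10 counts in both libraries, so their presence or absence was not resolved at this depth.

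The libraries differed little for most members. After scaling by trimmed mean of M values over all genes (edgeR), none (0) of the 32 members averaging 100 counts or more differed over 2-fold between the libraries, where 0.71% of all 12256 such genes did (0.457% higher and 0.253% lower in replicate 1). With 1 library on each side no test was possible. The median log2 ratio of replicate 1 over replicate 2 was -0.12 over these members and -0.02 over all such genes. Of the members, 10 were higher and 22 lower in replicate 1, and the same split over all genes was not counted. Over the 60 members averaging 10 counts or more the median ratio was 0.01, with 30 higher and 30 lower. With spike-in scaling it was 0.02 over the 32. Spike-in scaling moved all genes by 0.14, so the difference of the members' median from that of all genes was -0.09 under both scalings; from 10 counts upward the difference was 0.008. The median absolute log2 ratio was 0.18 over members and 0.12 over all genes, but these sets were not matched for count. The spread of all genes narrowed as counts rose. Its 5th to 95th percentile was -0.49 to 0.68 near 117.5 counts and -0.27 to 0.24 near 956.5 counts. The part of count in the larger median of the members was not tested.

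The 4 largest differences among these 32 members were all lower values in replicate 1. Kcnj10 had 79 counts in replicate 1 and 146 in replicate 2 (log2 ratio -0.70), Kcna7 169 and 291 (-0.60), Kcnj2 696 and 1195 (-0.60) and Kcna5 89 and 144 (-0.51). Kcne1l, with 2803 and 4048 counts, had a log2 ratio of -0.35. Near their counts the 5th percentile of all genes was -0.49 (Kcnj10 and Kcna5), -0.38 (Kcna7), -0.27 (Kcnj2) and -0.24 (Kcne1l). Each of these genes lay below it. The highest ratio was that of Kcnn2, with 233 and 210 counts (0.32), under the 95th percentile of 0.51 near 231 counts. Marker lists moved too, with a median log2 ratio of -0.22 for the 6 muscle fibre markers and -0.37 for the 6 Schwann cell markers, all lower in replicate 1 (Schwann cell sum 317 TPM in replicate 1 and 423 TPM in replicate 2); their part in these differences was not tested. The authors' TPM intervals did not overlap between the libraries for 5 of the 30 detected genes. Among them were Kcne1l, Kcnj2, Kcnn3 and Kcna7, which were each lower in replicate 1. The share of all genes whose intervals did not overlap was not computed, so this count has no background. The confidence level of those intervals is not stated.

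From 10 counts upward, 2 of 60 members differed over 2-fold, both higher in replicate 1, where 3.75% of all such genes did (2.72% higher and 1.02% lower in replicate 1). Kcnn4, the calcium-activated channel gene known from red cells, had 70 counts in replicate 1 and 22 in replicate 2 (log2 ratio 1.75). The 5 red cell markers were all higher in replicate 1 (median log2 ratio 2.47) and summed to 1233 TPM in replicate 1 and 229.7 TPM in replicate 2; the 4 lymphocyte markers summed to 1.75 and 0.37 TPM. Their part in the Kcnn4 difference was not tested. Kcnh1 had 20 and 8 counts (1.29), a difference resting on few reads.

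**Figure D4:**
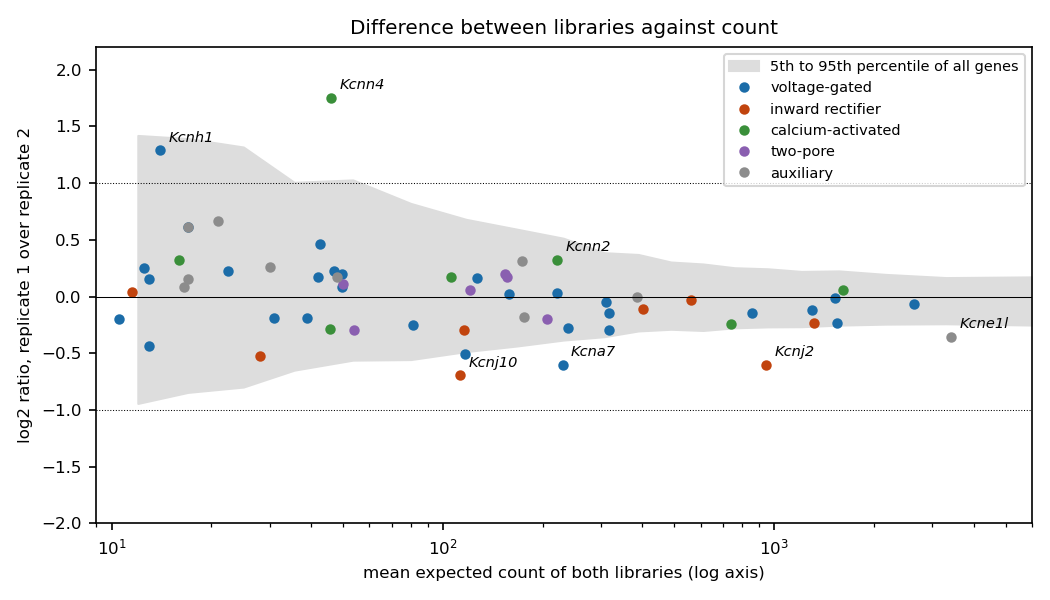
Log2 ratio of replicate 1 over replicate 2 against the mean expected count (log axis) for the 60 potassium channel genes averaging 10 counts or more, coloured by class, with the 5th to 95th percentile of all genes in 20 bins of count in grey and dotted lines at 2-fold. Kcnn4 and Kcnh1 lie above the upper line at 1.75 and 1.29, and Kcnj2, Kcna7 and Kcnj10 lie lowest, between -0.60 and -0.70.

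Transcripts of the detected genes were mostly annotated as coding. Of the 30 genes, 24 had more than 1 annotated transcript, and in all 24 the leading transcript by mean TPM was protein coding. In 17 of the 30, all TPM fell on protein-coding transcripts. This was fixed by the annotation for genes with no noncoding transcript. These were the 6 with 1 transcript and Kcnj8, Kcnj12, Kcnq1, Kcne4, Kcnj3 and Kcna2. The coding shares were not compared with those of other genes. The leading transcript was the same in both libraries for 19 of the 24 and in the other quantification for 22. Kcnma1, with 38 annotated transcripts, placed 45.6% ± 4.38 of its TPM on a coding transcript of 3429 nt and 24.8% ± 2.02 on one of 12094 nt. The second transcript of Kcnn3, annotated as a retained intron, held 43.2% ± 1.05, and 42.4% in the other quantification.

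Some transcript shares were not stable. Kcna6 fell wholly on a coding transcript of 5836 nt in replicate 2 and not at all in replicate 1, where one of 5827 nt annotated for nonsense-mediated decay held 75.3%, while the gene total was 1.98 and 2.03 TPM. The coding share of Kcnab1 was 93.0% in replicate 1, 63.2% in replicate 2 and 47.7% in the other quantification. In Kcnh2 the coding share was 68.8% in replicate 1 and 87.4% in replicate 2. The leading transcript of Kcnj8 took 55.6% ± 5.89 of its TPM, against 95.3% in the other quantification, and both transcripts of that gene are coding. The leading transcript of Kcnq5 was coding with 31.9% ± 8.55 of the gene, while the other quantification put a processed transcript first with 37.2%.

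**Figure D5:**
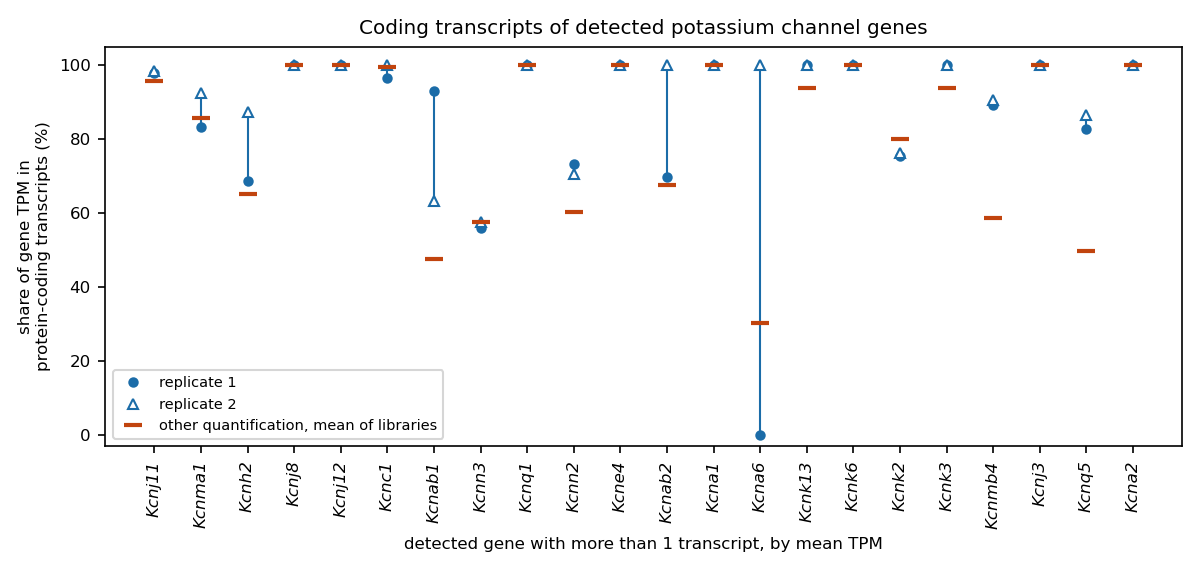
Share of gene TPM in protein-coding transcripts, in percent, for 22 of the 24 detected genes with more than 1 annotated transcript, in replicate 1 (circles), replicate 2 (triangles) and as the library mean of the other quantification (orange dashes). Most genes lie at or near 100%, while Kcna6 spans 0% to 100% between libraries and Kcnab1 spans 63.2% to 93.0%. Genes with no annotated noncoding transcript lie at 100% by annotation.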

How the data were processed

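Total RNA-seq of 2 gastrocnemius samples was analysed. For each library the authors deposited gene and transcript tables holding TPM and expected counts (estimates that may be fractions), and a separate transcript table with estimated counts and TPM, the other quantification here. The gene tables also hold interval bounds on TPM, a deposited signal of no stated level. Per the deposited file notes the build was mm10 with GENCODE M21. The sources used here do not give the aligner or counter. The total per library was 30961087 and 36246031 counts in replicates 1 and 2. The tables do not separate the parental alleles. In the gene tables, Ensembl genes that are not protein coding held 58.7% and 56.9% of all TPM.

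Members were matched by gene ID (94 of 94). Classes follow symbol prefixes; the sodium-activated Kcnt genes and the sperm gene Kcnu1 were counted as calcium-activated. After rounding the expected counts, edgeR 4.0.16 (R 4.3.3) gave scaling factors over genes averaging 10 counts or more and log2 ratios with a prior count of 2; this step was tested on simulated data. DESeq2 1.42.0 size factors were an alternative. Python 3.11.15 did the rest. The planned protein sequences were not used here, and coding sequences of GENCODE transcripts were read in their place. Members follow from symbol and biotype alone. That rule, the lists, thresholds and alternatives were chosen with earlier results of these data known. Every member could be named; those with the highest TPM of each class, near the detection level, at 0 counts or far apart between libraries were described by rule, and other genes were chosen after their values were seen. Counting floors cover counting error only, since reads are not independent molecules. Some genes counted in the totals are not reported here by name and are left out of the plots of single genes.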

Additional observations from a re-analysis of the deposited data

How the results depend on the processing

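The share of members detected was 31.9% at 1 TPM. It was 20.2% at 2 TPM and 61.7% for 10 counts in both libraries, and stayed within 1.5 times under the other 5 alternatives. By expected counts the class shares were 47.9% for voltage-gated, 16.0% for inward rectifier, 12.9% for calcium-activated and 19.8% for auxiliary genes. Without Kcne1l, chosen after seeing the data, they were 50.4%, 23.4%, 13.1% and 8.09%, with 4.95% for two-pore genes. The inward rectifier share was 14.9% in the other quantification and 16.2% with detected members only, and the two-pore share 2.90% with detected members only. Single libraries gave 33.2% to 34.8% for voltage-gated, 15.7% to 15.9% for inward rectifier, 7.86% to 9.90% for calcium-activated, 3.13% to 3.56% for two-pore and 36.0% to 39.9% for auxiliary genes. The median log2 ratio (-0.12) was -0.067 by library size and changed sign with spike-in totals (0.024), a mean of at least 10 counts (0.0093) and no count filter (0.059). Spike-in scaling moved all genes alike and left the difference of the members from all genes at -0.094, as before (-0.093); at a mean of at least 10 counts it was 0.008. The count over 2-fold apart was 0, and 2 and 6 at the last 2 filters, where more genes with few reads entered; the other scalings gave 0. The median coding share was 100% and 97.7% in the other quantification. It was partly fixed by the annotation, since some genes have no noncoding transcript. Over single genes, that quantification moved the TPM of all 30 detected members by more than 1 SD. Ratios between the libraries need both, so leaving one out was not run for them. No paired analysis was possible because there is 1 group.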
